A study of Mus musculus with 6 samples.

Results

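The 7 genes Lpl, Gpihbp1, Cd36, Fabp4, Fabp5, Meox2 and Tcf15 serve the uptake of fatty acids through capillaries or its control. They were chosen by name, 7 of 19321 genes named on the array, and each was read by its brightest probe over the 6 arrays. Each had 1 probe, so no choice between probes arose. All 7 lay above background on all 6 arrays, and all 7 were among the 18372 genes tested.

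The study set 3 freshly sorted cell populations of hind limb muscle side by side at 2 ages, to find genes of each population and genes altered by aging. The populations were a mixture of CD31+ or CD45+ cells, which holds endothelial or hematopoietic cells and is called CD31_CD45 here, PDGFRa+ mesenchymal progenitors (called PDGFRa here, the interstitial cells that can give rise to fibroblasts and adipocytes), and satellite cells, the stem cells of the muscle fibre. Each population gave 1 array from aged mice (24 to 28 months) and 1 array from young mice (8 to 10 weeks), 6 arrays in all. All mice were C57BL/6, no array carries a treatment or an altered gene, and each RNA came from cells pooled over repeated sorts. The number of mice is not given in the sources used here.

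Triglyceride in the blood is split at the capillary wall by lipoprotein lipase, the product of Lpl, which is made by parenchymal and stromal cells. GPIHBP1, a protein on the surface of capillary endothelial cells, binds the lipase and carries it to the lumen. CD36 takes up long-chain fatty acids at the cell surface, and FABP4 and FABP5 bind fatty acids inside the cell. The transcription factors MEOX2 (a homeobox protein) and TCF15 (a basic helix-loop-helix protein) form a heterodimer in the capillary endothelium of heart and skeletal muscle, where mouse work places genes of fatty acid uptake under their control. Cd36, Fabp4, Fabp5 and Lpl are also known from macrophages, which CD45 sorting admits, so the levels in CD31_CD45 are those of a mixture.

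Levels are given as intensity in the units of the value table deposited by the authors, in which the median of every array is 25 and no level can be set against that of another gene. Differences between populations are log2 values from 1 linear model with population and age as terms, fitted by limma to all 6 arrays, with 2 arrays per population. A gene was called when its adjusted p was under 0.05 and the difference was at least 2-fold. Between 88.4% and 92.3% of the 23473 probes were above background per array. Of 13 endothelial markers, 12 were called higher in CD31_CD45 than in PDGFRa and 12 than in satellite cells, and all 5 hematopoietic markers were called higher in both comparisons. So were all 11 macrophage markers. Of 6 pericyte and smooth muscle markers, 2 (Rgs5 and Acta2) were called higher than in PDGFRa and 1 (Acta2) than in satellite cells. They summed to 11176 aged and 9291 young in CD31_CD45, 1331 and 1051 in PDGFRa, and 6609 and 3887 in satellite cells. All 7 mesenchymal markers were called higher in PDGFRa than in satellite cells, and all 6 satellite cell markers lower. Adipoq, which defines adipocytes, read 1.5 and 1.1 in aged and young CD31_CD45, 0.8 in young PDGFRa, and was below background on the other 3 arrays. The slope with which the scanner merged its gains, per the file headers, falls into 2 groups of arrays, 0.477 to 0.478 in both CD31_CD45 arrays and aged satellite, against 0.465 to 0.466 in both PDGFRa arrays and young satellite.

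Gpihbp1, Cd36, Fabp4, Fabp5 and Tcf15 were far brighter in CD31_CD45 than in both other populations at both ages, whereas Lpl was also bright in PDGFRa and Meox2 overlapped in range between PDGFRa and CD31_CD45. Against PDGFRa, 6 of the 7 genes were called higher in CD31_CD45 and Meox2 was not, beside 5.41% of all genes tested called higher and 10.1% called in either direction. Against satellite cells, 7 of 7 were called higher, beside 6.56% of all genes called higher and 11.7% in either direction. With the local background of each spot in place of the blank spots, the calls that stayed were Gpihbp1 and Tcf15 over PDGFRa and Gpihbp1, Meox2 and Tcf15 over satellite cells, while the direction of every difference but Meox2 over PDGFRa stayed. These comparisons share the CD31_CD45 arrays. In bulk samples such as these, fewer cells of a type and less RNA per cell cannot be told apart.

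**Figure D1:**
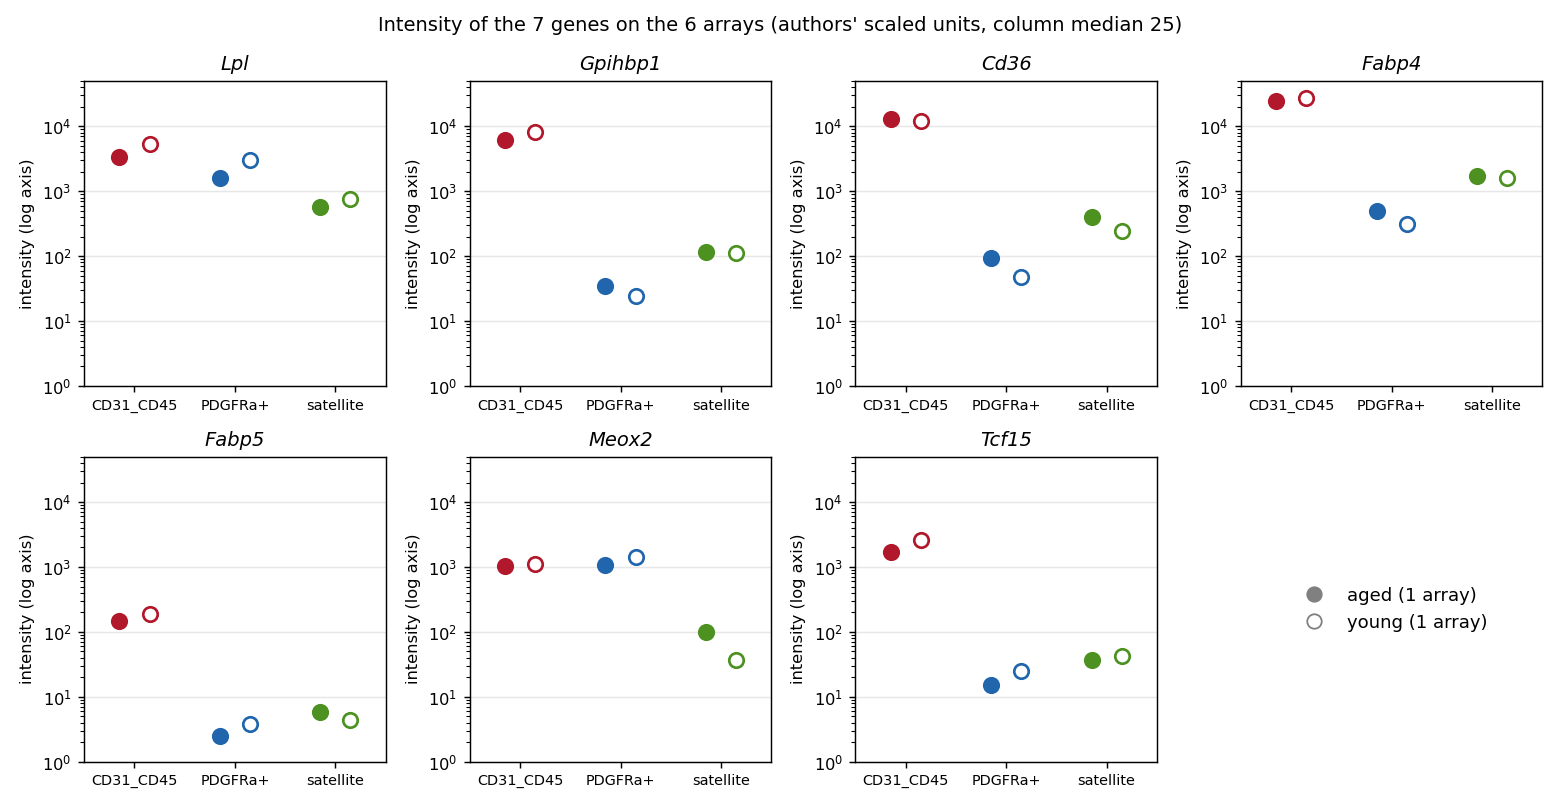
Intensity of each gene on the 6 arrays, on a log axis, in the units of the deposited value table, with 1 panel per gene and 1 point per array. Filled points are aged and open points young. In the panels of Gpihbp1, Cd36, Fabp4, Fabp5 and Tcf15 both CD31_CD45 points stand well above the other 4 points. In the Lpl panel the PDGFRa points lie between CD31_CD45 and satellite, and in the Meox2 panel the CD31_CD45 and PDGFRa points lie together.

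Lpl, the lipase itself (probe M300001423, Entrez gene 16956, chromosome 8), read 3424 in aged and 5316 in young CD31_CD45, 1626 in aged and 3045 in young PDGFRa, and 573 in aged and 756 in young satellite cells. The order was CD31_CD45, PDGFRa and satellite at each age, and the ranges of the 3 populations did not overlap, although young PDGFRa came close to aged CD31_CD45. Lpl was called higher in CD31_CD45 than in PDGFRa by 1.17 (SE 0.17, 95% interval 0.67 to 1.68, adjusted p = 0.0211) and than in satellite cells by 2.81 (SE 0.17, adjusted p = 0.00361). PDGFRa exceeded satellite cells by 1.63 (SE 0.17, adjusted p = 0.0149). The step between CD31_CD45 and PDGFRa was the smallest of the 6 called for this pair of populations, and its call was lost without any 1 of those 4 arrays (adjusted p = 0.0671 to 0.126). It was also lost with the value table in place of the normalised values (0.94, adjusted p = 0.0267, under 2-fold). With the slope group as a block the difference was 0.66, under 2-fold. Slope group and population coincide for these 2 populations, so that block takes its slope term from the satellite pair alone.

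Gpihbp1, the endothelial carrier of the lipase (probe M200014482, Entrez gene 68453, chromosome 15), read 6274 in aged and 8086 in young CD31_CD45, 34.6 and 23.9 in aged and young PDGFRa, and 115 and 112 in aged and young satellite cells. It was thus 181-fold and 338-fold brighter in CD31_CD45 than in PDGFRa at the aged and the young stage, on the linear scale. The fitted log2 difference was 7.16 over PDGFRa (SE 0.16, adjusted p = 0.00103) and 5.93 over satellite cells (SE 0.16, adjusted p = 0.00123). Satellite cells lay above PDGFRa, where the difference was -1.23 (PDGFRa minus satellite, SE 0.16, adjusted p = 0.0214). The lipase and its carrier therefore had different orders over the populations, since PDGFRa stood second for Lpl and last for Gpihbp1.

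Cd36, the fatty acid translocase (probe M300000349, Entrez gene 12491, chromosome 5), read 12914 in aged and 12243 in young CD31_CD45, 94.1 and 48.5 in aged and young PDGFRa, and 399.8 and 242.5 in aged and young satellite cells. The 3 populations did not overlap, and their order was CD31_CD45, satellite and PDGFRa. Its difference over PDGFRa was 7.24 (SE 0.20, adjusted p = 0.00130), the largest of the 7 genes in that comparison, and 5.46 over satellite cells (SE 0.20, adjusted p = 0.00170). PDGFRa minus satellite stood at -1.78 (SE 0.20, adjusted p = 0.0167).

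Fabp4, the fatty acid binding protein of adipocytes, macrophages and capillary endothelium (probe M300005685, Entrez gene 11770, chromosome 3), read 24751 in aged and 27076 in young CD31_CD45, 491 and 311 in aged and young PDGFRa, and 1733 and 1587 in aged and young satellite cells. Its order was that of Cd36, with no overlap between populations. The difference was 6.08 over PDGFRa (SE 0.21, adjusted p = 0.00173) and 4.05 over satellite cells (SE 0.21, adjusted p = 0.00267), and PDGFRa minus satellite stood at -2.04 (SE 0.21, adjusted p = 0.0141). Its spots on the CD31_CD45 arrays, 46753 aged and 50190 young before scaling, were near the highest spot of those arrays, 53590 and 59049. The files carry no mark of saturation.

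Fabp5 (probe M300005690, Entrez gene 16592, chromosome 3), the other binding protein, read 146 in aged and 190.3 in young CD31_CD45, 2.5 and 3.8 in aged and young PDGFRa, and 5.8 and 4.4 in aged and young satellite cells. The CD31_CD45 arrays stood clear of the other 4, which lay at the low end of the scale. On the linear scale the CD31_CD45 level was 58.5-fold (aged) and 50.1-fold (young) that of PDGFRa, and 25.2-fold and 43.3-fold that of satellite cells. On the log2 scale the same differences were 2.41 (SE 0.10, adjusted p = 0.00216) and 2.34 (SE 0.10, adjusted p = 0.00203), because the offset of 50 added before taking logs shrinks differences of dim genes. PDGFRa and satellite cells were not shown to differ, with a difference of -0.06 and a 95% interval of -0.35 to 0.22 (adjusted p = 0.737). RefSeq lists a pseudogene copy, Fabp5l2, on another chromosome, and whether this probe reads it too was not tested.

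Fabp5 and Fabp4 lie in 1 cluster of binding protein genes, which RefSeq orders as Fabp5, Pmp2, Fabp9, Fabp4 and Fabp12, between Pag1 and Impa1. Pmp2, the myelin fatty acid binding protein, read 30.9 and 35.9 in aged and young CD31_CD45 and 4.7 to 10.3 on the other 4 arrays, a difference of 0.75 over PDGFRa (adjusted p = 0.00471) and 0.60 over satellite cells (adjusted p = 0.00606), both under 2-fold on the log2 scale with the offset of 50, which shrinks differences at such low levels. Fabp9, a binding protein known from testis, read 15.2 and 15.9 in aged and young CD31_CD45, was below background in PDGFRa, and read 1.0 on both satellite arrays. On the same log2 scale its differences were 0.53 (adjusted p = 0.00713) and 0.50 (adjusted p = 0.00683). Fabp12 was below background on every array and was not tested. Of the flanking genes, Pag1 read 1.8 to 4.3 on the 6 arrays. Impa1, an inositol monophosphatase, read 159 and 158 in aged and young CD31_CD45 against 69.0 to 116 elsewhere, a difference of 0.36 over PDGFRa (adjusted p = 0.0245) and 0.86 over satellite cells (adjusted p = 0.00421), both under 2-fold.

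Meox2 (probe M300010258, Entrez gene 17286, chromosome 12) read 1033 in aged and 1109 in young CD31_CD45, 1057.5 and 1417 in aged and young PDGFRa, and 100.5 and 37.2 in aged and young satellite cells. The ranges of CD31_CD45 and PDGFRa overlapped, and both satellite arrays were lower than the other 4. CD31_CD45 minus PDGFRa was -0.07 (SE 0.35, adjusted p = 0.916), with a 95% interval of -1.11 to 0.97 that reaches beyond 2-fold in favour of PDGFRa. With the slope group as a block it was -1.18. Slope group and population coincide for these 2 populations, so that block takes its slope term from the satellite pair alone. It cannot separate slope from population here. Over satellite cells, CD31_CD45 was higher by 3.51 (SE 0.35, adjusted p = 0.00836) and PDGFRa by 3.59 (SE 0.35, adjusted p = 0.0138). The CD31_CD45 call was lost without either CD31_CD45 array (adjusted p = 0.0537 and 0.0636).

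Tcf15, the partner of Meox2 (probe M400010925, Entrez gene 21407, chromosome 2), read 1698 in aged and 2561 in young CD31_CD45, 15.4 and 25.2 in aged and young PDGFRa, and 36.4 and 42.0 in aged and young satellite cells. Unlike Meox2, it read near or below the array median of 25 in PDGFRa. The difference was 5.36 over PDGFRa (SE 0.15, adjusted p = 0.00129) and 4.94 over satellite cells (SE 0.15, adjusted p = 0.00138). PDGFRa minus satellite was -0.42, with a 95% interval of -0.86 to 0.01 (adjusted p = 0.138). Against CD31_CD45, PDGFRa was thus lower for Tcf15, whereas for Meox2 no difference was called.

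**Figure D2:**
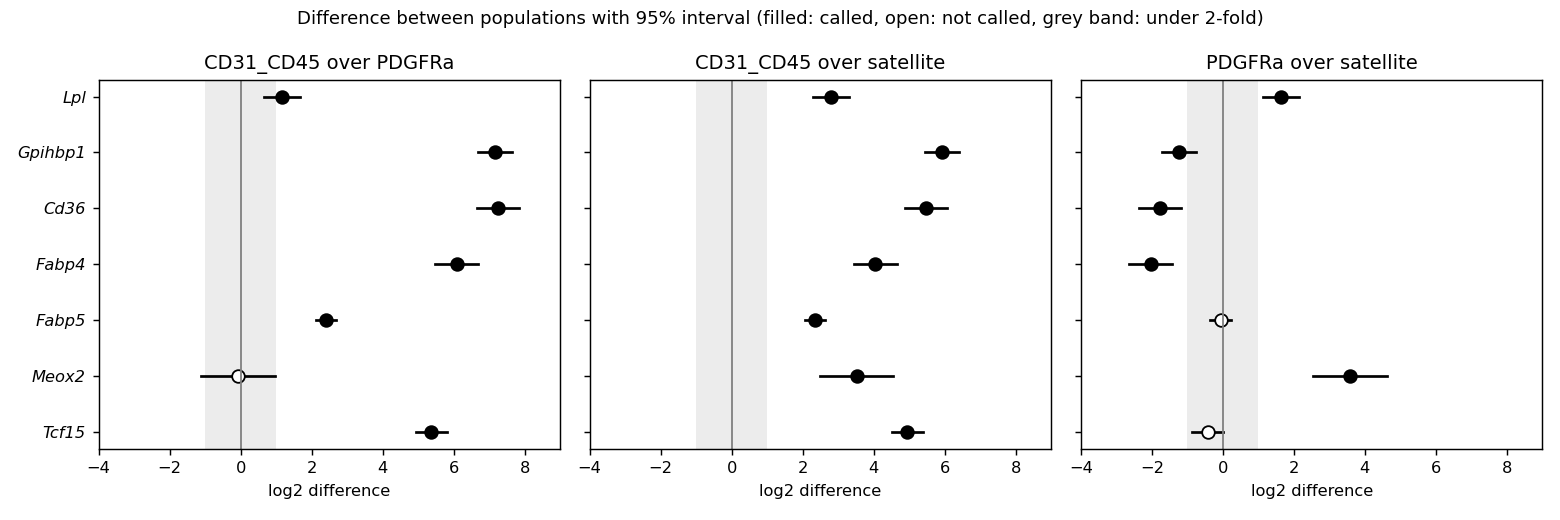
Fitted log2 difference of each gene, with its 95% interval as a line, in 3 panels for CD31_CD45 over PDGFRa, CD31_CD45 over satellite and PDGFRa over satellite. Filled points were called, open points were not, and the grey band marks less than 2-fold. Open points are Meox2 in the first panel and Fabp5 and Tcf15 in the third.

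Between the other populations the 7 genes split. PDGFRa over satellite called 5 of 7, with Lpl and Meox2 higher and Gpihbp1, Cd36 and Fabp4 lower, beside 7.29% of all genes called in either direction (4.09% higher and 3.20% lower). By limma, no member and none of all genes was called without either PDGFRa array, although 5 members, and 5426 and 5033 genes, kept an unadjusted p under 0.05 there without the aged and without the young array. Of the members, 2 (Lpl and Meox2) were called without either satellite array, and 4 without either CD31_CD45 array, when Lpl was lost. Within arrays of 1 scanner slope group, PDGFRa minus satellite at the young stage was -1.35 for Gpihbp1, -1.78 for Cd36, -2.32 for Fabp4, 1.94 for Lpl and 4.22 for Meox2. With the slope group as a block, the PDGFRa minus satellite differences were those of the fit without the aged satellite array. They were 1.89 for Lpl, 4.14 for Meox2 and -1.62 for Cd36. Only the satellite pair spans both slope groups, so the block adds nothing to that fit. The same check within a slope group for CD31_CD45 minus satellite, at the aged stage, gave 2.18 (Fabp5) to 5.76 (Gpihbp1). No slope group holds both a CD31_CD45 and a PDGFRa array.

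The genes with the most unlike patterns were Cd36 and Meox2, and these were also the 2 of the 7 genes with a promoter in the RefSeq table used here (build GRCm38.p6), 250 bases before to 50 bases after the start site. They are shown because MEOX2 is a homeobox protein and TCF15 a helix-loop-helix protein, whose families bind TAAT cores and E-boxes. The Cd36 window is chr5:17835847-17836146 (minus strand) and the Meox2 window chr12:37108290-37108589 (plus strand). Capitals mark 3 motifs, searched on both strands: E-box CANNTG, the homeobox core TAAT or ATTA, and the nuclear receptor element AGGTCA or TGACCT.
Cd36: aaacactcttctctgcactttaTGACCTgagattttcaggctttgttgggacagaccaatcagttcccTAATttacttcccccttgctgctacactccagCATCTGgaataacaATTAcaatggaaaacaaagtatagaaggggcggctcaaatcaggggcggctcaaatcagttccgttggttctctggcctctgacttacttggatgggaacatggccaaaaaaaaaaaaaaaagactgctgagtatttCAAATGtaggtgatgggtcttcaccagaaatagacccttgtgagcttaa
Meox2: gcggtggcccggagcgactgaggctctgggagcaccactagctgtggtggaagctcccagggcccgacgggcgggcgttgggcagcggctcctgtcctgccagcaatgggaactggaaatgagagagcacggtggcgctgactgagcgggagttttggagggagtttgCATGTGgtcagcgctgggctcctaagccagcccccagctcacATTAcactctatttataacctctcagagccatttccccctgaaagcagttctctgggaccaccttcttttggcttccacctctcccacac
The Cd36 window holds 2 E-boxes, CATCTG at 150 bases before the start site and CAAATG at 1 base after it. It also holds TAAT at 182 bases and ATTA at 136 bases before the start, and TGACCT at 228 bases before it. The Meox2 window holds CATGTG at 82 bases and ATTA at 40 bases before its start, and no AGGTCA or TGACCT. Such letters are common: of 32851 promoter windows of this length, 72.3% hold an E-box, 58% a TAAT or ATTA, and 16.3% an AGGTCA or TGACCT. The matches describe these windows and say nothing of binding.

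Patterns were compared by the root mean square difference of log2 values over the 6 arrays, after each gene was centred on its own mean, with dim genes drawn together by the offset. Among the 7 genes the nearest pair was Gpihbp1 and Cd36 at 0.35, and the farthest Cd36 and Meox2 at 3.11. Over all genes tested, the pattern most like Gpihbp1 was that of the tetraspanin Tspan13 at 0.08, followed by Egfl7, a secreted endothelial protein, at 0.21 and Timp4, a metalloproteinase inhibitor, at 0.21. Cd36 was nearest to Flt1, a receptor for vascular endothelial growth factors, at 0.29, then Tspan13 at 0.34 and Gpihbp1 at 0.35. Tcf15 lay nearest to Kdr at 0.10 and Tie1 at 0.13, both endothelial receptor kinases, and to C1qtnf9, a secreted relative of adiponectin, at 0.13.

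The other members had nearest patterns outside that endothelial group or at larger distance. Fabp4 was nearest to the proteoglycan Srgn at 0.34, the chemokine Cxcl12 at 0.54 and the sialomucin Podxl at 0.55. Fabp5 was nearest to Gm6762, which RefSeq lists as a pseudogene, at 0.03, then to the blood and endothelial transcription factor Tal1 at 0.06 and to Fcna, the lectin ficolin A, at 0.06. Lpl had Gask1b at 0.22, Tmem229b at 0.28 and the monooxygenase Fmo2 at 0.28, each reading between its CD31_CD45 and satellite levels in PDGFRa. Meox2 had the matricellular gene Sparcl1 at 0.30, the growth factor binding protein Igfbp7 at 0.40 and the gap junction gene Gja1 at 0.42. All 3 neighbours of Meox2 were bright in CD31_CD45 and PDGFRa at both ages and read higher in aged than in young satellite cells, as Meox2 did (Sparcl1 613 against 290.0, Igfbp7 2918 against 726, Gja1 439 against 179). Neighbours were picked for likeness over these same 6 arrays. Levels and directions that they share with a member therefore follow largely from that choice.

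The levels of the members on the other arrays were set beside those of 13 endothelial markers, each as a percent of the CD31_CD45 level at the same age. On the satellite arrays the markers had a median of 2.74% (2.04% to 52.2%) aged and 1.79% (1.38% to 45.8%) young, with the dim gene Erg at the top. Gpihbp1 stood there at 1.83% and 1.39%, Tcf15 at 2.14% and 1.64%, Cd36 at 3.10% and 1.98%, Fabp5 at 3.96% and 2.31%, and Fabp4 at 7.0% and 5.86%, aged and young. Lpl stood at 16.7% and 14.2%, and Meox2 at 9.73% aged and 3.36% young. On the PDGFRa arrays the markers had a median of 0.971% (0.539% to 68.1%) aged and 0.732% (0.361% to 42.7%) young. Gpihbp1 stood at 0.552% and 0.296%, Cd36 at 0.729% and 0.396%, Tcf15 at 0.907% and 0.984%, Fabp5 at 1.71% and 1.997%, and Fabp4 at 1.98% and 1.15%, aged and young.

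Lpl at 47.5% and 57.3% and Meox2 at 102% and 128% of the CD31_CD45 level were thus apart from the other 5 members on the PDGFRa arrays, where among the markers Tek (32.4% and 31.6%), Eng (16% and 15%) and Erg were also high. The endothelial markers summed to 681 and 648 in aged and young PDGFRa and 1077 and 976 in aged and young satellite cells, against 36323 and 46396 in aged and young CD31_CD45. Pecam1 read 13.2 to 50.1 and Cdh5 1.0 to 1.7 on those 4 arrays. Between those populations 2 of the 13 markers (Flt1 and Egfl7) were called lower in PDGFRa than in satellite cells, as Gpihbp1, Cd36 and Fabp4 were, 1 (Eng) was called higher and 10 were not called. The part of endothelial RNA in the members' levels on the PDGFRa and satellite arrays was not tested.

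**Figure D3:**
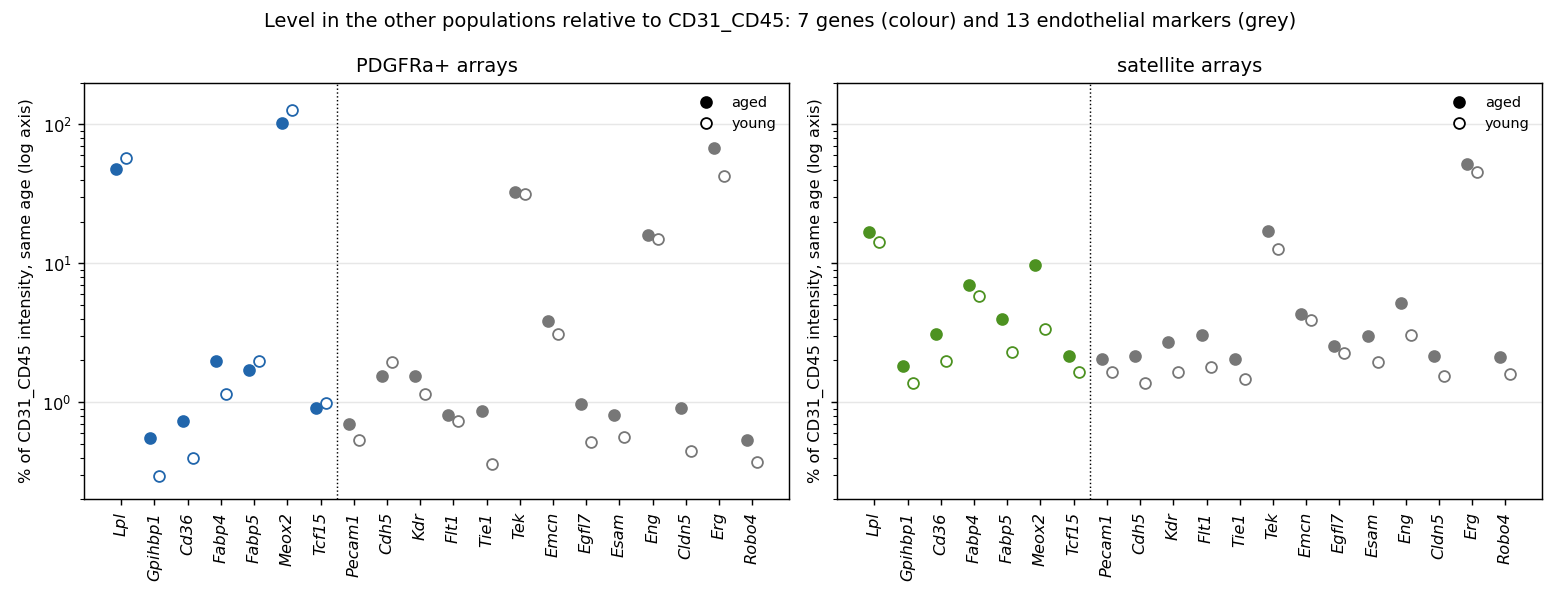
Intensity on the PDGFRa (left) and satellite (right) arrays as a percent of the CD31_CD45 intensity at the same age, on a log axis, for the 7 genes in colour and 13 endothelial markers in grey. Filled points are aged and open points young. Lpl and Meox2 stand at 47.5% to 128% on the PDGFRa arrays, and the other 5 genes at 0.296% to 1.997%, among most of the markers.

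A list of 40 other genes of fatty acid handling was set beside the 7, of which 38 were tested. It was chosen with earlier results of these data known. Against PDGFRa, 10 were called higher in CD31_CD45, 2 lower and 26 not, with a median difference of 0.12 beside -0.01 over all genes, of which 5.41% were called higher and 4.70% lower. The 10 were Flt1, Cavin2, Aplnr, Cav1, Cav2, Nrp1, Pparg, Scarb1, Pnpla2 and Mgll. The list is not separate from the cell markers, as Flt1 is also 1 of the 13 endothelial and Cav1 1 of the 5 capillary markers. The part of endothelial RNA in these counts was not tested. Flt1, a receptor of VEGFB, was higher by 6.89 (adjusted p = 0.00137), the caveolar coat gene Cavin2 by 5.13 (adjusted p = 0.00144), and Aplnr, the apelin receptor, by 3.98 (adjusted p = 0.00556). The 2 called lower were the lipoprotein receptors Lrp1 at -4.06 (adjusted p = 0.00122) and Vldlr at -2.50 (adjusted p = 0.00448).

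Against satellite cells, 14 of the 38 were called higher in CD31_CD45, 4 lower and 20 not, with a median of 0.09 beside -0.02 over all genes, of which 6.56% were called higher and 5.12% lower. Flt1 was higher by 5.53 (adjusted p = 0.00164), Nrp1, a coreceptor of VEGFB, by 3.87 (adjusted p = 0.00734) and Aplnr by 3.8 (adjusted p = 0.00530). The lowest were Vldlr at -2.46 (adjusted p = 0.00406), Lrp1 at -1.35 (adjusted p = 0.00571) and Acsl3, an acyl-CoA synthetase, at -1.19 (adjusted p = 0.00471), and the remaining call was Slc27a1. PDGFRa over satellite called 4 higher, 4 lower and 30 not, with a median of -0.02, beside 4.09% of all genes higher and 3.20% lower, and no gene was called without either PDGFRa array. Lrp1 stood at 2.71 (adjusted p = 0.00504), Nrp1 at 1.87 (adjusted p = 0.0418) and the lysosomal lipase Lipa at 1.35 (adjusted p = 0.0171), against Cavin2 at -3.55 (adjusted p = 0.00539), Flt1 at -1.35 (adjusted p = 0.0251) and the caveolin Cav1 at -1.06 (adjusted p = 0.0254).

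Pparg, the nuclear receptor for which Cd36 and Fabp4 are textbook target genes, was singled out from this list after its values were seen. It read 408 in aged and 459 in young CD31_CD45, 15.2 and 17.1 in aged and young PDGFRa, and 16.0 and 8.8 in aged and young satellite cells. It was called higher in CD31_CD45 than in PDGFRa by 3.20 (adjusted p = 0.00139) and than in satellite cells by 3.33 (adjusted p = 0.00124). The fatty acid transport proteins did not share that pattern, as Slc27a1 read 19.4 and 15.5 in aged and young CD31_CD45 against 33.1 to 86.8 on the other 4 arrays, and neither Slc27a3 nor Slc27a4 was called in any comparison.

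With age, no member was called by the term common to the 3 populations (3 aged against 3 young arrays), and neither was any of the 18372 genes (0.00%), of which 2030 (11.0%) had an unadjusted p under 0.05. Lpl and Cd36 were among those 2030. Lpl had a difference of -0.63 (aged minus young, SE 0.14, 95% interval -1.04 to -0.22, unadjusted p = 0.0149, adjusted p = 0.366) and was lower on the aged array in 3 of 3 populations. Cd36 had 0.52 (SE 0.17, 95% interval 0.03 to 1.00, unadjusted p = 0.0424, adjusted p = 0.433) and was higher in 3 of 3, although with the local background it was lower in aged CD31_CD45 (-0.86). The other members lay between -0.31 (Tcf15) and 0.29 (Fabp4), with adjusted p of 0.501 to 0.955. With the local background the age term of Lpl turned to 0.21, and Meox2 alone of the members had an unadjusted p under 0.05. With 1 array left out the term lay between -0.80 and -0.49 for Lpl and between 0.41 and 0.73 for Cd36.

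Within a population, 1 aged array stood against 1 young array, which gives no test. On the log2 scale with the offset of 50, which shrinks differences of dim genes, no member differed by 2-fold or more, beside 0.580% of genes in CD31_CD45, 0.425% in PDGFRa and 1.23% in satellite cells. In CD31_CD45 the aged level was 64.4% of the young one for Lpl, 66.3% for Tcf15, 76.9% for Fabp5, 77.6% for Gpihbp1, 91.4% for Fabp4, 93.2% for Meox2 and 105% for Cd36. Lpl was lower in aged cells also in PDGFRa (53.4%) and satellite cells (75.8%), and so was Tcf15 (61.1% and 86.7%). Of all genes above background in the pairs, 21.1% were lower on the aged array in all 3 and 14.2% higher in all 3. These directions depended on the background correction. With the local background the log2 difference of Lpl was -0.52 in PDGFRa but 0.46 in CD31_CD45 and 0.68 in satellite cells, and that of Tcf15 was -0.02 in CD31_CD45, 0.01 in PDGFRa and 0.20 in satellite cells. Over all settings, 12 of 126 log2 differences of a member in an age pair changed sign, 9 of them with the local background. Any move of Fabp4 in CD31_CD45 from 0 counts as a change. It moved with the local background (-0.30), median centring (-0.14) and the value table (-0.13).

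Cell markers moved between the CD31_CD45 arrays at the same time. Of 13 endothelial markers, 12 were lower on the aged array, with a median of 80.2% (64.4% for Esam to 123% for Eng), and their summed intensity was 36323 aged and 46396 young. All 5 capillary markers were lower, with a median of 69.6% (58.9% for Aqp1 to 82.1% for Ly6c1). All 5 hematopoietic markers were higher, with a median of 143%, and summed to 2486 aged and 1734 young, with Ptprc, which encodes CD45, at 415 and 252. The 11 macrophage markers had a median of 102.5%, with 7 higher and 4 lower (78.3% for Mrc1 to 165% for Adgre1). The fall was not particular to endothelial markers. Of 6 pericyte and smooth muscle markers, 5 were lower and 1 higher, with a median of 79.8% (56.0% for Abcc9 to 139% for Acta2). Of 7 mesenchymal markers, 5 were lower and 2 higher, with a median of 90.9%. The part of the endothelial share of the mixture in the members' levels was not tested.

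In PDGFRa, 3 members read higher in aged cells, with Cd36 at 194% of the young level, Fabp4 at 158% and Gpihbp1 at 145%, whereas Lpl (53.4%), Tcf15 (61.1%), Fabp5 (65.8%, at 2.5 against 3.8) and Meox2 (74.6%) read lower. The endothelial markers had a median of 112% there, 8 of 13 above 100%. Of 5 hematopoietic markers, 3 were lower on the aged array and 2 higher, with a median of 89.6%. Of the macrophage markers, 9 of 11 were above background on both arrays, with a median of 121% and 3 of 9 below 100% (Cd68 at 61.3%), and 1 of them, Lyz2, stood apart at 1905 aged and 110.1 young. In satellite cells Meox2 read 270.2% of the young level, Cd36 165%, Fabp5 132% (5.8 against 4.4), Fabp4 109%, Gpihbp1 102%, Tcf15 86.7% and Lpl 75.8%. The endothelial markers had a median of 109% there, with 8 of 13 above 100% and 4 below. Of 10 macrophage markers above background on both satellite arrays, 9 were higher and 1 lower, with a median of 194% (Lyz2 at 965 against 147). All 5 hematopoietic markers were higher, with a median of 148%, and summed to 31.9 aged and 21.7 young. They were dim there, at 2.3 to 12.3, and differed by 0.01 to 0.09 on the log2 scale with the offset of 50. The 11 macrophage markers had a median log2 difference of 0.15 in satellite cells. The log2 difference of Meox2 was 0.94 with the offset of 50 and thus under 2-fold, unlike its intensities. It was over 2-fold with an offset of 10 (1.29), with no background correction (1.21) and with the value table (1.43), and turned to -0.39 with the local background.

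Markers of other cells moved with Meox2 between the satellite arrays. All 7 mesenchymal markers were higher on the aged array, with a median of 275% and Pdgfra at 60.6 against 7.6, all 6 pericyte and smooth muscle markers were higher with a median of 349%, and all 6 myofibre markers with a median of 248%. As a percent of the PDGFRa level at the same age, Meox2 in satellite cells stood at 9.50% aged and 2.63% young, and the 7 mesenchymal markers at a median of 9.55% (1.46% to 31.5%) aged and 2.22% (0.133% to 29.2%) young. The part of such cells in the Meox2 level was not tested.

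**Figure D4:**
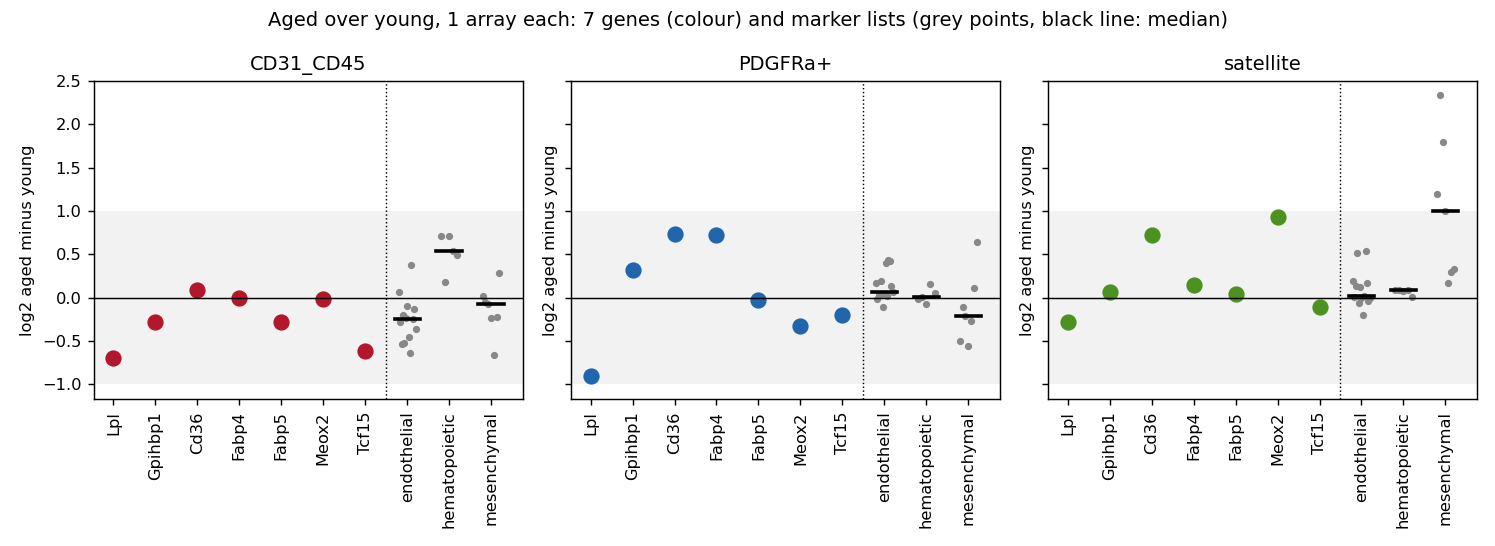
Log2 aged minus young in CD31_CD45, PDGFRa and satellite cells (1 array against 1 in each panel), for the 7 genes in colour and, in grey with a black line at the median, endothelial, hematopoietic and mesenchymal markers. The grey band marks less than 2-fold and holds all 7 genes in every panel. In the satellite panel Meox2 stands at 0.94 and the mesenchymal markers at a median of 1.00.

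Of the other fatty acid handling genes, none was called by the age term. At least 2-fold apart in an age pair were Aplnr in CD31_CD45, at 419 aged and 993 young (-1.16), Apoc2, the lipoprotein cofactor that activates the lipase, in CD31_CD45 at 106 aged and 31.8 young (1.09), and Cav1 in PDGFRa at 618 aged and 1409 young (-1.03). None was so in satellite cells.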

How the data were processed

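Per the labels' protocols, RNA was amplified with amino allyl nucleotides and labelled with Cy5 on 1-colour arrays. Per the file headers, scanner files hold the median intensity of 27456 spots merged from 3 gains. The authors deposited a value table of linear intensity as well. Checked against the scanner files, it subtracts the trimmed mean (5% at each end) of 2736 blank spots from each spot, scales the rest per array (largest deviation 0.0559) and leaves cells below background empty. The log2 values were computed here from the deposited scanner intensities: normexp with that blank mean as background, offset 50, and quantile normalisation. Symbols came from the array annotation (20690 probes named, 2783 not used). Genes above background on at least 2 arrays were tested.

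An additive model of population and age used all 6 arrays (R 4.3.3, limma 3.58.1, with 2 residual degrees of freedom before eBayes), two-sided, adjusted by Benjamini and Hochberg over 18372 genes. With 1 array per population and age, the error comes from age pairs after the shared age difference, so p-values measure only the spread between these arrays. The number of arrays limits the precision. The fit was tested on simulated data.

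Members and lists were chosen with earlier results of these data known. Named are the members, the 3 nearest patterns of each, and, of the fatty acid handling list, up to 3 called genes per direction and those 2-fold apart in an age pair. Alternatives changed the background, offset, normalisation, filter, probe rule, value source and slope block, and left out each array. Symbols of RefSeq (GRCm38.p6) served for names, gene order and promoters.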

Additional observations from a re-analysis of the deposited data

Results flagged for a closer look

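Between populations, the log2 aged minus young difference of 3 members ran in opposite directions, in 6 pairings. None of these differences between populations was tested, since each population has 1 aged and 1 young array. Gpihbp1 stood at 0.31 in PDGFRa (34.6 aged against 23.9 young) and 0.06 in satellite cells (115 against 112), and at -0.28 in CD31_CD45 (6274 against 8086), gaps of 0.59 and 0.34. Fabp5 stood at 0.05 in satellite cells (5.8 against 4.4), and at -0.28 in CD31_CD45 (146 against 190.3) and -0.03 in PDGFRa (2.5 against 3.8), gaps of 0.32 and 0.08. In satellite cells it turned to -0.03 with median centring and -0.07 with the local background. Meox2 stood at 0.94 in satellite cells (100.5 against 37.2), and at -0.32 in PDGFRa (1057.5 against 1417) and -0.02 in CD31_CD45 (1033 against 1109), gaps of 1.26 and 0.96. With the local background Meox2 was lower in aged cells of all 3 populations (-0.39 in satellite cells, -1.14 in PDGFRa and -0.88 in CD31_CD45). Gpihbp1 turned to -0.33 in satellite cells with the local background and kept its opposite directions between PDGFRa and CD31_CD45 (0.26 and -0.44). The intensities of Fabp4 also ran in opposite directions, at 91.4% of the young level in CD31_CD45 against 158% in PDGFRa and 109% in satellite cells, although its log2 difference in CD31_CD45 was 0.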

How the results depend on the processing

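The local background of each spot, which follows the signal of its own spot (r = 0.961 to 0.980 across spots), ended more calls of members than any other setting tried. With it, limma called 2 members in CD31_CD45 over PDGFRa (Gpihbp1 and Tcf15), 3 in CD31_CD45 over satellite (Gpihbp1, Meox2 and Tcf15) and 0 in PDGFRa over satellite, where 2 members and 3087 genes had an unadjusted p under 0.05. The calls over all genes were then 289, 342 and 69, beside 1858, 2146 and 1339 as reported. They were 4006, 4715 and 3152 with the value table, 2947, 3382 and 2213 with an offset of 10, and 835 for CD31_CD45 over PDGFRa with the slope block. The slope term of that block rests on the satellite pair alone, since slope group and population coincide for CD31_CD45 and PDGFRa. In PDGFRa over satellite the block gave the differences of the fit without the aged satellite array, such as 1.89 for Lpl and 4.14 for Meox2. Leaving out each array in turn gave 5 to 6 members in CD31_CD45 over PDGFRa (1134 to 1815 genes, lowest without young PDGFRa), 6 to 7 in CD31_CD45 over satellite (1735 to 2127 genes) and 0 to 4 in PDGFRa over satellite (0 to 1310 genes, 0 without either PDGFRa array). In the age pairs, members 2-fold apart numbered 2 in PDGFRa (Fabp4 and Meox2) and 2 in satellite cells (Cd36 and Fabp4) with the local background, and 1 in satellite cells (Meox2) with the value table, with no background correction and with an offset of 10. The cause of these shifts was not tested. Of 294 differences of a member between populations under these settings, 252 stayed on the same side of the call, 42 lost it, and 6 changed sign (Fabp5 in PDGFRa over satellite and Meox2 in CD31_CD45 over PDGFRa), none of them called. In the age pairs 12 of 126 changed sign, and in the age term 11 of 98. No member or gene was called by the age term under any setting, with 1465 to 3294 genes at an unadjusted p under 0.05. Fabp4 has the same rank on both CD31_CD45 arrays, so quantile normalisation gives it no age difference there, and median centring gave -0.14.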
